A study of Medicago truncatula with 4 samples.

Results

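The Root Cap family of *Medicago truncatula* is a small group of genes that encode secreted proteins, and its members are the 8 genes whose description in the deposited annotation begins with "Root Cap". They carry the symbols *MtRC1* and *MtRC3* to *MtRC9*, and they are 8 of the 52709 genes in the count table, of which 3784 have a description at all. All 8 had counts in at least 2 libraries and passed the minimum of 10 counts in total. The family was singled out because its counts were higher in calli overexpressing *MtWOX9-1* than in wildtype calli, so the values of that contrast are a description of the members and support nothing further.

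The root cap is the tissue that covers and protects the root apical meristem. Its central part, the columella, holds starch-filled cells that sense gravity, and its outer layers secrete mucilage and are shed as border cells while new layers are formed from root cap stem cells. The family is named for a conserved region of plant root cap proteins, and the function of the single *M. truncatula* members is not given in the annotation. In *A. thaliana*, the formation of root cap layers is governed by the NAC transcription factors FEZ, which promotes the divisions that produce new layers, and SOMBRERO, which promotes their maturation. Somatic embryos, which develop from callus cells, form a shoot pole and a root pole, and a root cap belongs to the latter.

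Libraries were made from polyA RNA of calli grown from leaf explants and collected on day 35 of culture, 2 from wildtype R108 plants and 2 from R108 plants carrying the coding sequence of *MtWOX9-1*, a WUSCHEL-related homeobox gene, from the plasmid pMDC32, a vector for constitutive overexpression. The leaves of both kinds came from plants grown in soil for 35 days, and all calli spent 30 days with the synthetic auxin 2,4-D at 18 μM and the cytokinin BAP at 2.22 μM in the medium, followed by 5 hormone-free days. The number of independent transgenic lines behind the overexpressing calli, and whether calli were pooled, are not given in the sources used here. The labels call the replicates biological.

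The libraries held between 5241334 and 6666866 counts, so that a gene listed at 0 may have had up to 0.450 to 0.572 CPM, depending on the library (CPM is counts per 1000000 counts; the limit is 3 counts and covers counting error only). *MtWOX9-1* itself was taken to be MtrunA17Chr2g0283141 (Medtr2g015000), whose symbol in the deposited annotation is *MtWOX9b*. For this gene the wildtype libraries held 2 and 18 counts, against 7692 and 7634 under overexpression, which follows all 4 labels. Replicates differed beyond sampling noise in both groups. The keywords for leaf and vascular cells matched 0 genes of the deposited annotation, so the content of other cell types in the calli was not measured with marker lists. Normalized counts below are counts scaled with edgeR's TMM method to a common library size, and each log2 fold change is that of overexpressing over wildtype calli. Gene lengths were not used, so counts of different genes are numbers of reads and not transcript levels.

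By the order of the gene IDs, 5 of the Root Cap genes lie on chromosome 2, 2 on chromosome 4 and 1 on chromosome 8. *MtRC3* and *MtRC4* are consecutive in that order, *MtRC5* and *MtRC6* have 2 genes between them, and *MtRC7* and *MtRC8* have 1 gene between them. *MtRC1* and *MtRC9* stand alone. The family thus falls into 5 places, of which 3 hold a pair of members. Whether reads that match more than 1 gene were dropped, split or assigned to each of them is not stated in the sources used here, so the counts of single members are uncertain to the extent that they share sequence, which was not tested.

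All 8 Root Cap genes had more counts in each overexpressing library than in either wildtype library. Such a separation was seen in 39.3% of all genes tested, and the opposite one in 35.8%. The 8 members were also called higher (adjusted p under 0.05, from the quasi-likelihood test of edgeR after Benjamini-Hochberg adjustment), a call made for 20.2% of all genes, and 39.2% were called in either direction. Since the family was chosen on this contrast, nothing is read from these shares. The log2 fold changes of the members ran from 5.01 to 8.46 with a median of 7.14, beside a median of 0.04 over all genes tested, and 4.35% of all genes reached the value of the lowest member. With *MtRC4*, which had 0 counts in both wildtype libraries, taken at its lower bound, the median was 6.87. In bulk RNA, a change in the number of cells that express a gene and a change in its RNA per cell cannot be told apart.

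**Figure D1:**
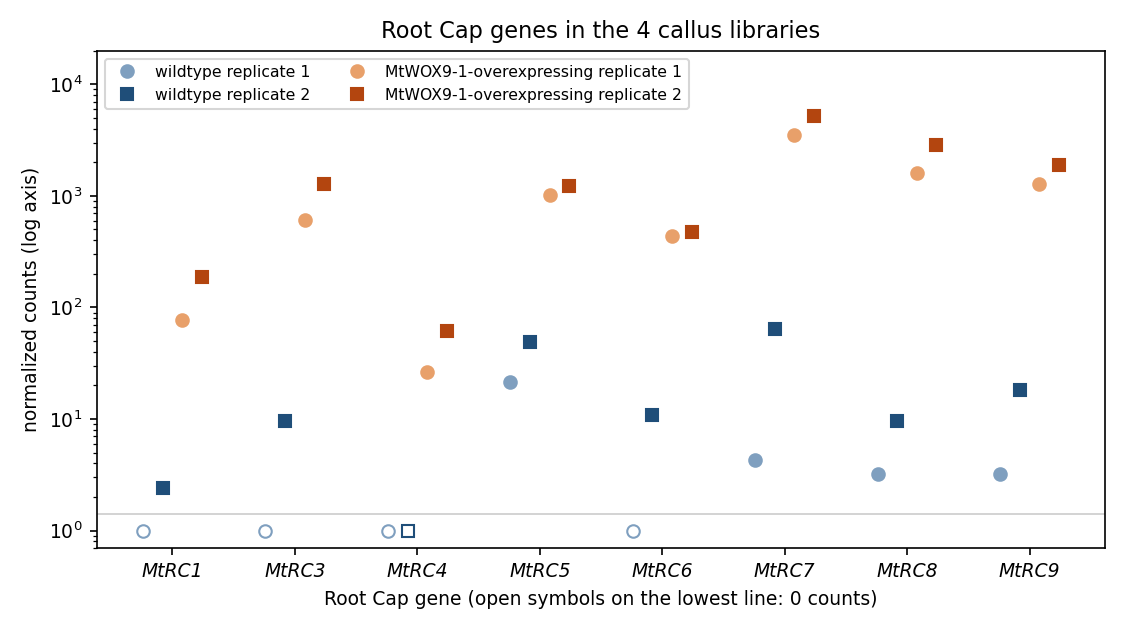
Normalized counts of the 8 Root Cap genes (horizontal axis) in each of the 4 libraries on a log axis, with wildtype calli in blue, overexpressing calli in orange, circles for replicate 1 and squares for replicate 2. Open symbols stand for 0 counts. In each gene both orange symbols lie above both blue symbols, and 7 of the 8 genes have wildtype replicate 2 above wildtype replicate 1.

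In overexpressing calli, the pair on chromosome 4 held most of the family's reads. *MtRC7* (MtrunA17Chr4g0029271, Medtr4g059630 in the older annotation) had 4 and 53 counts in wildtype replicates 1 and 2 and 3956 and 5728 counts in overexpressing replicates 1 and 2. In normalized counts this was 34.1 ± 42.1 (SD, n = 2) in wildtype and 4334 ± 1202 (SD, n = 2) under overexpression, with a log2 fold change of 7.03 (SE, the standard error, 0.90). The wildtype libraries differed from each other by more than their mean, and still the lower overexpressing library lay 54.6-fold above the higher wildtype library.

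*MtRC8* (MtrunA17Chr4g0029291, Medtr4g059670) had 3 and 8 counts in wildtype and 1807 and 3184 in overexpressing calli. Its normalized counts went from 6.43 ± 4.52 (SD, n = 2) to 2237 ± 913 (SD, n = 2), a log2 fold change of 8.45 (SE 0.55). Among the members with counts in wildtype calli this was the widest separation, the lower overexpressing library lying 165-fold above the higher wildtype library. *MtRC8* gave 18.7% of the family's counts in overexpressing replicate 1 and 21.8% in replicate 2, after *MtRC7* with 40.8% and 39.3%.

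On chromosome 2, *MtRC5* (MtrunA17Chr2g0318311, Medtr2g080230) was the member with the most counts in wildtype calli over both libraries, 20 and 41, against 1163 and 1368 in overexpressing calli. Its log2 fold change of 5.01 (SE 0.36) was the smallest of the family and the one with the smallest error. Its normalized counts were 35.4 ± 19.7 (SD, n = 2) and 1131 ± 151 (SD, n = 2). *MtRC6* (MtrunA17Chr2g0318341, Medtr2g080260), its close neighbour, had 0 and 9 counts in wildtype and 500 and 529 in overexpressing calli, with normalized counts of 5.42 ± 7.66 (SD, n = 2) and 460 ± 27.2 (SD, n = 2) and a log2 fold change of 6.45 (SE 0.62). The overexpressing libraries agreed most closely for this gene.

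*MtRC3* (MtrunA17Chr2g0292811, Medtr2g030835) had 0 and 8 counts in wildtype and 690 and 1413 in overexpressing calli. The rise from 4.81 ± 6.81 to 943 ± 475 normalized counts (SD, n = 2 each) gave a log2 fold change of 7.65 (SE 0.82). The overexpressing replicates differed widely, and the lower of them lay 63.1-fold above wildtype replicate 2.

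*MtRC4* (MtrunA17Chr2g0292821, Medtr2g030825) was the member with the fewest reads, with 0 counts in either wildtype library and 30 and 68 under overexpression (normalized 44.0 ± 24.8, SD, n = 2). Against 3 counts in each wildtype library, its level was at least 12.9-fold higher on the mean of the overexpressing libraries and at least 7.73-fold higher on the lower of them. Its fitted log2 fold change of 8.46 depends on the prior count and is no bound. *MtRC1* (MtrunA17Chr2g0287361, Medtr2g021580) had 0 and 2 counts in wildtype and 88 and 206 in overexpressing calli. The ratio of its pooled levels was 115.5 with a 95% interval from 31.7 to 958 (exact conditional, counting error only).

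*MtRC9* (MtrunA17Chr8g0360691, Medtr8g464300), the member on chromosome 8, had 3 and 15 counts in wildtype and 1456 and 2092 in overexpressing calli. Its normalized counts went from 10.6 ± 10.5 to 1588 ± 432 (SD, n = 2 each), and its log2 fold change was 7.25 (SE 0.55). The lower overexpressing library lay 71.0-fold above the higher wildtype library.

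Summed over its members, the family had 30 and 136 counts in the wildtype libraries, or 4.95 CPM (95% exact Poisson interval from 3.34 to 7.06) and 26.0 CPM (from 21.8 to 30.7). In overexpressing calli it had 9690 and 14588 counts, or 0.145% and 0.228% of all counts. The summed normalized counts were 98.0 ± 92.9 (SD, n = 2) and 10869 ± 3302 (SD, n = 2), a 111-fold difference of the means. The order of the members by reads was not the same in both kinds of calli, since *MtRC5* was first in pooled wildtype counts with 61, before *MtRC7* with 57, and came after *MtRC7*, *MtRC8* and *MtRC9* in both overexpressing libraries.

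Wildtype replicate 2 stood above wildtype replicate 1 in 7 of the 8 members, and in the remaining one, *MtRC4*, both had 0 counts. Over all genes tested, 49.8% had a higher normalized count in wildtype replicate 2. In wildtype replicate 1, 4 members had 0 counts and 6 had at most 3. The summed level was 5.07 times higher in replicate 2, and *MtRC7* alone was 14.8 times higher there (95% interval from 5.46 to 56.4, exact conditional, counting error only). Without wildtype replicate 2 the family had a median log2 fold change of 9.66, against 6.27 without wildtype replicate 1. The direction of the 8 members could not turn either way, because each overexpressing library lay above both wildtype libraries. The same side was favoured by other genes with large differences. Of 931 further genes called higher with a log2 fold change at least that of *MtRC5*, 752 had 0 counts in both wildtype libraries and show no order. The other 179 had unequal wildtype levels, and 166 of these were higher in wildtype replicate 2. The part of this difference between the wildtype libraries in the result was not tested beyond leaving each library out.

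The level in wildtype replicate 2 was also taken as a share of the level in overexpressing calli, with intervals that cover counting error only, while replicates differed by more than that. For *MtRC8* it was 0.432% of the overexpressing level (95% interval from 0.187% to 0.852%, exact conditional). For *MtRC7* it was 1.48% (1.11% to 1.93%) and for *MtRC5* 4.37% (3.13% to 5.94%). *MtWOX9-1* had 0.317% (0.188% to 0.501%) by the same measure. Whether these shares differ beyond the spread between replicates was not tested.

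**Figure D2:**
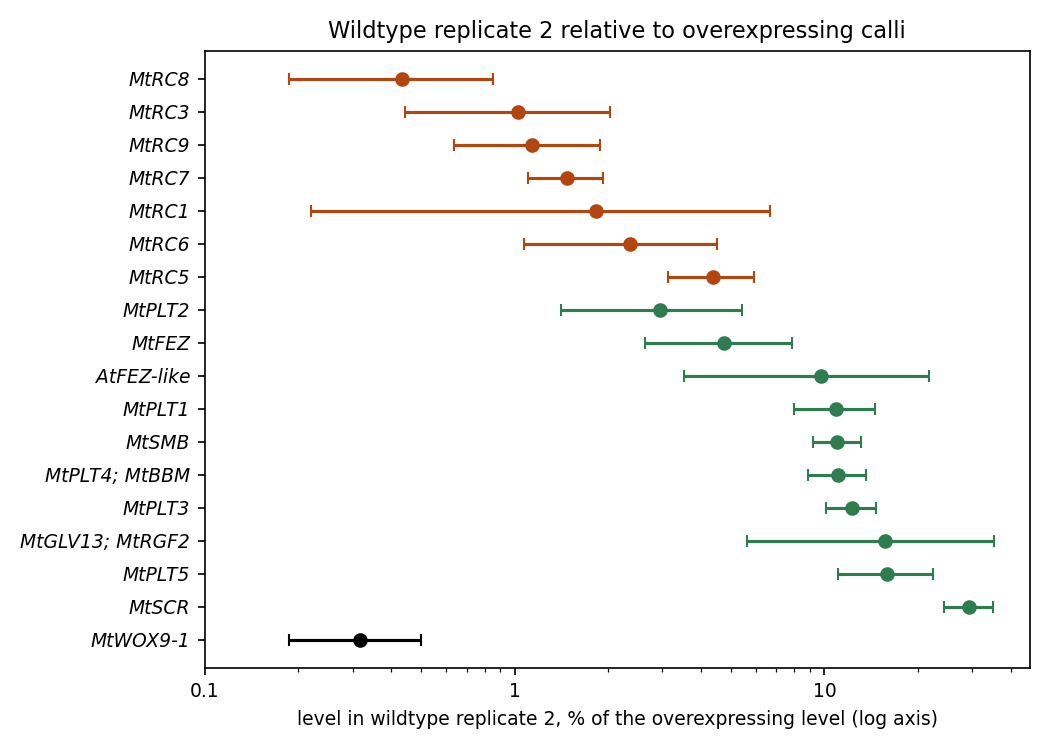
Level in wildtype replicate 2 as a percentage of the level in overexpressing calli (log axis), with 95% intervals of counting error, for the 7 Root Cap genes with counts there (orange), the root apex regulators called higher that have counts there (green) and *MtWOX9-1* (black). The Root Cap genes lie between 0.432% and 4.37%, and the root apex regulators between 2.94% and 29.4%.

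The overexpressing replicates differed as well, and all 8 members were higher in replicate 2, as were 49.7% of all genes tested. The ratio of replicate 2 to replicate 1 in normalized counts was 2.41 for *MtRC1*, 2.10 for *MtRC3* and 2.33 for *MtRC4* (95% intervals of counting error from 1.87 to 3.12, 1.92 to 2.31 and 1.50 to 3.71). It was 1.81 for *MtRC8*, 1.49 for *MtRC7*, 1.48 for *MtRC9*, 1.21 for *MtRC5* and 1.09 for *MtRC6*, and the interval of *MtRC6* (0.960 to 1.23) includes 1. Among genes whose counts in overexpressing calli were within a factor of 2 of theirs, the ratios of *MtRC1*, *MtRC3* and *MtRC8* were above those of 99.5%, 99.6% and 99.4%, whereas that of *MtRC6* was above 72.5%. By place, *MtRC3* and *MtRC4* both lay above 2, and *MtRC5* and *MtRC6* were the lowest of the family. The intervals of *MtRC7* and *MtRC8* (1.43 to 1.55 and 1.71 to 1.92) do not overlap.

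**Figure D3:**
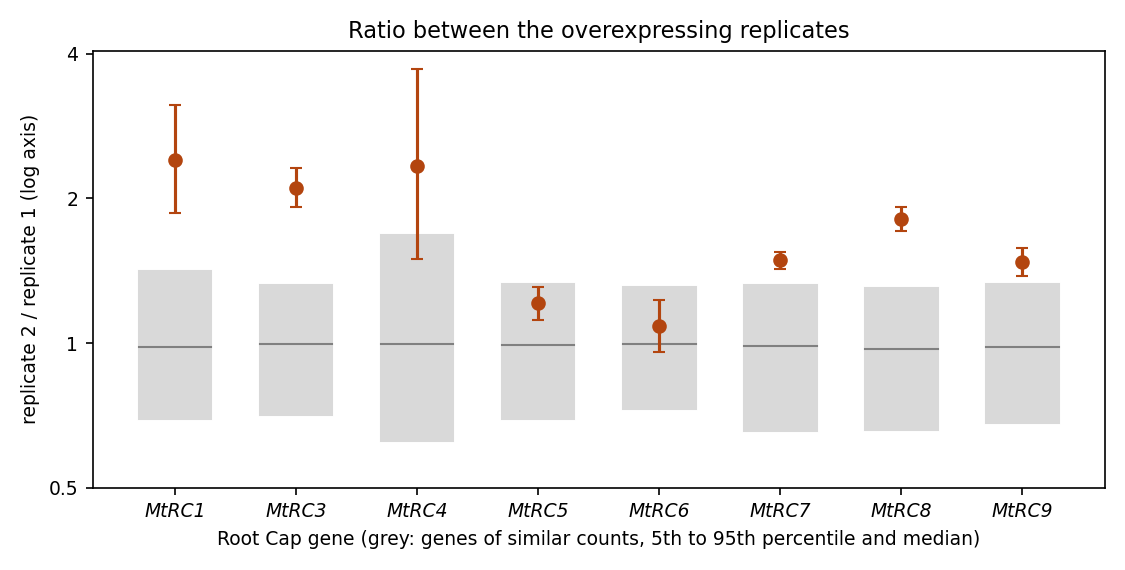
Ratio of overexpressing replicate 2 to replicate 1 in normalized counts for each Root Cap gene (points, log axis) with 95% intervals of counting error. Grey boxes give the 5th to 95th percentile and the median of genes with similar counts. *MtRC5* and *MtRC6* lie within their boxes, and the other members lie above the 95th percentile.

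The genes beside the members were not chosen on their values. The 3 genes on each side of every member, in the order of the IDs and without the members themselves, were 33 genes, of which 13 had 0 counts in all libraries, 7 had fewer than 10 counts and 13 were tested. By the quasi-likelihood test 4 of these were higher, 1 was lower and 8 did not pass, with a median log2 fold change of 0.28. Of all genes tested, 20.2% were called higher and 18.9% lower. Among the 4 higher neighbours, MtrunA17Chr2g0292801 had 0 counts in both wildtype libraries. It reached the minimum for testing through the overexpressing libraries alone and could be called only higher, so the number called is not read against these shares. Without overexpressing replicate 1, 3 of the 5 calls remained.

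At 2 of the 5 places a direct neighbour was also much higher. *MtBGAL15* (MtrunA17Chr4g0029301), described as a beta-galactosidase, an enzyme class that removes galactose from cell wall polysaccharides, is the gene after *MtRC8*. It had 0 and 10 counts in wildtype and 525 and 404 in overexpressing calli, and its log2 fold change was 6.15 (SE 0.66, adjusted p = 0.0043 by the Benjamini-Hochberg method in the quasi-likelihood test of edgeR). Unlike *MtRC7* and *MtRC8*, it was lower in overexpressing replicate 2 than in replicate 1. The gene before *MtRC3*, MtrunA17Chr2g0292801, which has no symbol or description, had 0 counts in either wildtype library and 65 and 110 in overexpressing calli, at least 22.9-fold higher against 3 counts per wildtype library (adjusted p = 0.0061 from the same test). Whether it shares reads with *MtRC3* was not tested.

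The other neighbours that passed the test moved less. MtrunA17Chr2g0318351, the gene after *MtRC6*, had a log2 fold change of 1.35 (SE 0.20, adjusted p = 0.0081 from edgeR's test), and the gene 2 places after *MtRC8* had 1.12 (SE 0.20, adjusted p = 0.013, between 0.00899 and 0.0513 over the alternatives, with 0.0513 and a log2 fold change of 0.93 without overexpressing replicate 1). MtrunA17Chr8g0360711, 2 places after *MtRC9*, was lower with a log2 fold change of -0.99 (SE 0.20, adjusted p = 0.019), and over the alternatives its adjusted p lay between 0.015 and 0.11, with 0.11 for DESeq2. *THE1-like*, described as a regulator of cell elongation and placed directly before *MtRC5*, had 205 and 217 counts in wildtype and 267 and 231 in overexpressing calli, and its log2 fold change was -0.12 (SE 0.15, adjusted p = 0.57).

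**Figure D4:**
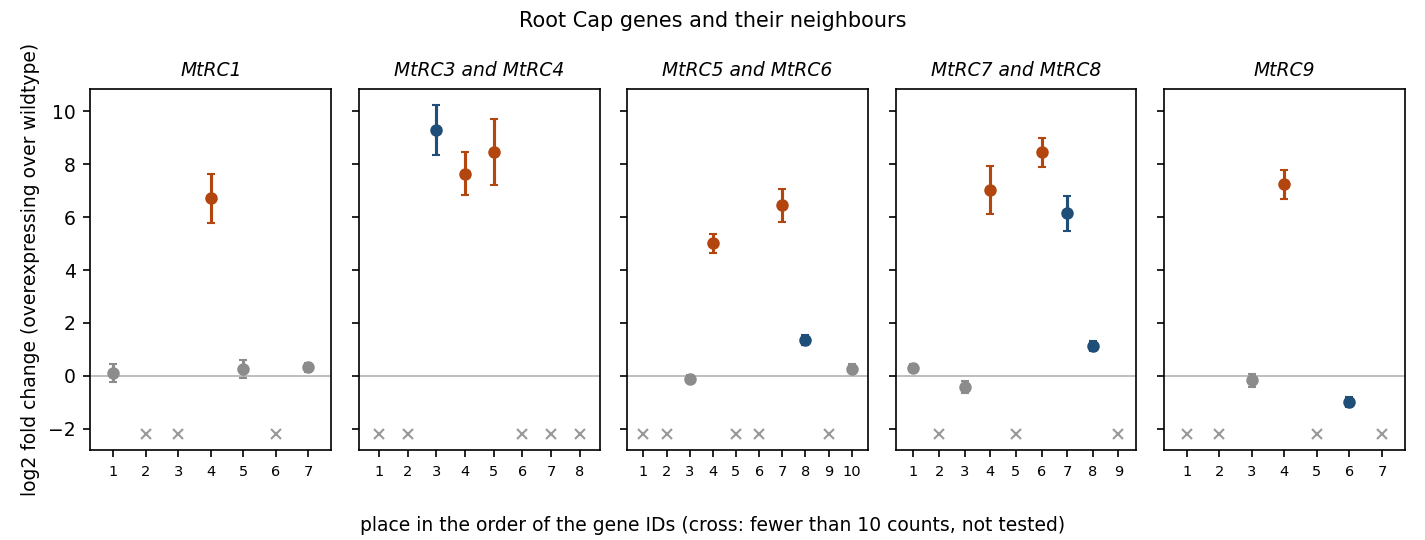
Log2 fold change of overexpressing over wildtype calli (points, bars are standard errors) for Root Cap genes (orange) and the genes beside them in the order of the IDs, in blue where the adjusted p was under 0.05 and in grey where it was not, for the 5 places. Crosses mark genes with fewer than 10 counts, and the values of *MtRC4* and of the gene before *MtRC3*, which have 0 wildtype counts, are fitted and no bounds. The called neighbours beside *MtRC3* and *MtRC8* stand highest among the neighbours.

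The regulators of the root apex were followed as a list of keywords (among them SOMBRERO, FEZ, SCARECROW, plethora, WOX5 and the Golven or Root Meristem Growth Factor peptides). It matched 24 genes, of which 8 had 0 counts in all libraries, 2 had fewer than 10 and 14 were tested. By the quasi-likelihood test 11 were higher and 1 was lower, with a median log2 fold change of 3.73. Of all genes, 20.2% were called higher and 18.9% lower, with a median of 0.04. *MtGLV14*, with 0 counts in both wildtype libraries, could be called only higher. Like *MtGLV13* and *AtFEZ-like*, with 0 and 6 wildtype counts each, it reached the minimum for testing only through the overexpressing libraries. The keywords were also chosen with earlier results known, so the number called is not read against the share of all genes. Over the alternatives the number called higher lay between 8 and 12. The median was 7.42 if wildtype replicate 2 was left out and 3.10 if replicate 1 was.

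Both factors that govern the formation of root cap layers in *A. thaliana* had higher counterparts here. *MtFEZ* (MtrunA17Chr8g0361731), a NAC factor whose annotation reads "fewer root cap layers", had 0 and 15 counts in wildtype and 419 and 435 in overexpressing calli, and its log2 fold change was 5.45 (SE 0.71, adjusted p = 0.0063 in edgeR, but 0.064 with DESeq2, and between 0.0013 and 0.064 over the alternatives). *AtFEZ-like* (MtrunA17Chr5g0417001), described with root cap formation, had 0 and 6 counts against 73 and 93 (log2 fold change 4.39, SE 0.76, adjusted p = 0.012 from edgeR, between 0.00070 and 0.0503 over the alternatives). *MtSMB* (MtrunA17Chr2g0309331), the SOMBRERO gene, had 49 and 129 counts in wildtype and 1478 and 1684 in overexpressing calli, with a log2 fold change of 3.78 (SE 0.49, adjusted p = 0.00605 from edgeR). In each of these genes, too, wildtype replicate 2 was above wildtype replicate 1 and both overexpressing libraries were above both wildtype libraries. *AtFEZ-like* and *MtSMB* were named after their values were seen.

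The plethora genes encode AP2-type factors, some of which maintain the root stem cell niche. The annotation also names *MtPLT4* as BABYBOOM (*MtBBM*), so the keyword does not stand for the root niche alone. *MtPLT2* (MtrunA17Chr4g0032631) had 0 and 10 counts in wildtype and 532 and 384 in overexpressing calli, and its log2 fold change was 6.13 (SE 0.67, adjusted p = 0.0045 from edgeR). *MtPLT1* (MtrunA17Chr2g0328971) had 0 and 48 against 697 and 489 counts, a log2 fold change of 4.24 (SE 0.97, adjusted p = 0.026 from edgeR, between 0.0014 and 0.28 over the alternatives, with 0.28 for DESeq2). Normalized counts of *MtPLT1*, *MtPLT2*, *MtPLT3* and *MtPLT4* were lower in overexpressing replicate 2 than in replicate 1, whereas *MtPLT5*, with 288 and 320 counts there, was higher in replicate 2, as the Root Cap genes were.

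SCARECROW, a GRAS factor needed for the quiescent centre and the endodermis, showed a smaller difference. *MtSCR* (MtrunA17Chr7g0245601) had 106 and 135 counts in wildtype and 744 and 496 in overexpressing calli, and its log2 fold change was 2.00 (SE 0.27, adjusted p = 0.0066 from edgeR). *MtSCL23*, a related GRAS gene, was lower, with 61 and 44 counts against 29 and 28 (log2 fold change -1.22, SE 0.22, adjusted p = 0.014 from edgeR, and between 0.011 and 0.10 over the alternatives). *MtSHR*, a partner of SCARECROW that the keywords missed, had 2 and 2 counts against 10 and 7 and did not pass (adjusted p = 0.073 from edgeR).

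*MtWOX5*, whose *A. thaliana* counterpart keeps columella stem cells from differentiating, had 0 and 9 counts in wildtype and 0 and 20 in overexpressing calli. Its replicates differed more than the groups, and its log2 fold change of 0.77 (SE 1.80, adjusted p = 0.76 from edgeR) turned to -0.27 without wildtype replicate 1. Among the Golven peptides, secreted signals of the root meristem, *MtGLV14* had 0 counts in either wildtype library and 114 and 108 in overexpressing calli, at least 29.0-fold higher against 3 counts per library (adjusted p = 0.0027 from edgeR). *MtGLV13* rose from 0 and 6 counts to 53 and 50 (adjusted p = 0.023 from edgeR, between 0.0031 and 0.084 over the alternatives), and *MtGLV5*, with 0 and 10 counts against 31 and 46, did not pass (adjusted p = 0.099).

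**Figure D5:**
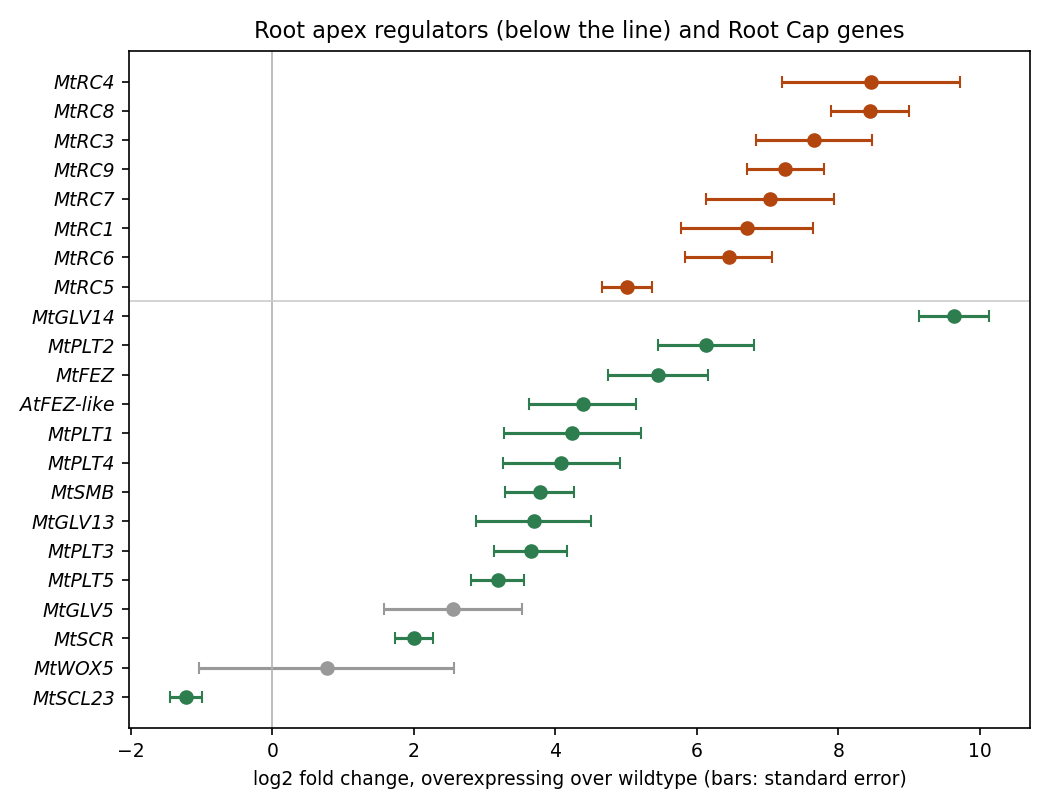
Log2 fold change of overexpressing over wildtype calli with its standard error for the 8 Root Cap genes (orange, above the line) and the 14 tested root apex regulators (below the line), in green where the adjusted p was under 0.05 and in grey where it was not. The Root Cap genes lie between 5.01 and 8.46 and the regulators between -1.22 and 9.63, and the values of *MtRC4* and *MtGLV14*, with 0 wildtype counts, are fitted and no bounds.

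Other lists were read beside the family. The late embryogenesis and seed keywords matched 6 genes, of which 5 were tested, 4 were higher and 1 was lower, beside 20.2% and 18.9% of all genes. Of those higher, *MtPM25* (23 and 24 counts in overexpressing calli) and *MtLEA4-5* (21 and 42) had 0 counts in both wildtype libraries. They reached the minimum for testing through the overexpressing libraries alone and could be called only higher, so the number called is not read against the share of all genes. *MtABI3*, a regulator of seed maturation, had 0 and 20 counts against 1184 and 1060 (log2 fold change 6.43, SE 0.76, adjusted p = 0.0051 from edgeR). *MtleguminB*, a seed storage protein, had 13 and 55 against 785 and 2146 counts (log2 fold change 5.06, SE 0.83, adjusted p = 0.011 from edgeR), with the same order of the replicates as in the Root Cap genes. *MtLEA* went the other way, from 264 and 198 counts to 18 and 46 (log2 fold change -3.18, SE 0.40, adjusted p = 0.0058 from edgeR).

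The keywords for secreted structural wall proteins matched 87 genes, which by their descriptions were 47 nodule-specific glycine-rich genes and 40 of the Late Anther Tomato52/Pollen Ole e family. Of 25 tested, 9 were higher, 4 were lower and 12 did not pass (median log2 fold change 0.44). Among all genes, 20.2% were called higher and 18.9% lower. Without overexpressing replicate 2 the median of the list was 0.34. The glycine-rich genes had 9 tested, 4 of them higher and 0 lower, with a median of 0.52. The Late Anther Tomato52/Pollen Ole e genes had 16 tested, 5 of them higher and 4 lower, with a median of -0.06. *MtLAT52/POE_3* had 0 counts in either wildtype library and 343 and 252 in overexpressing calli, at least 77.5-fold higher against 3 counts per library (adjusted p = 0.0027 from edgeR). Other genes of the list called higher also had 0 counts in both wildtype libraries, and such genes could be called only higher. *MtLAT52/POE_27* had 3 and 72 against 971 and 1463 counts (log2 fold change 4.64, SE 0.94, adjusted p = 0.019 from edgeR, between 0.0016 and 0.057 over the alternatives). *MtLAT52/POE_35* had 397 and 714 against 11616 and 9297 counts (log2 fold change 3.86, SE 0.39, adjusted p = 0.0039 from edgeR). *MtLAT52/POE_14* was lower, with 151 and 134 against 130 and 102 counts (log2 fold change -0.65, SE 0.16, adjusted p = 0.031 from edgeR, between 0.023 and 0.17 over the alternatives). The other 3 lower genes had fewer reads and larger differences, and were named after their values were seen. *MtLAT52/POE_12* had 55 and 32 against 0 and 3 counts (log2 fold change -5.07, adjusted p = 0.00865 from edgeR), and *MtLAT52/POE_11* and *MtLAT52/POE_21* had log2 fold changes of -3.19 and -3.17 (adjusted p = 0.00432 and 0.00544 from edgeR). Over the alternatives the highest adjusted p of *MtLAT52/POE_12* was 0.0346, that of *MtLAT52/POE_11* 0.0219 and that of *MtLAT52/POE_21* 0.0239. The lists for cell wall loosening and cell separation (3 genes) and for starch and gravity response (1 gene) were under the minimum of 5 genes and are not described.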

How the data were processed

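The count table that the authors deposited gives raw reads of each gene in each library, and there is a second table whose deposited signal per library is the count multiplied by 1 constant (1.06 and 1.18 for wildtype, 0.873 and 0.903 for overexpressing replicates 1 and 2). The submitters' notes name Trimmomatic, HISAT2, StringTie and DESeq. Strand and multiply mapped reads are not given in the sources used here. The authors' fold changes and p-values in the second table were not used, only its symbols and descriptions. 0 per-sample columns were left unused.

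Genes with at least 10 counts in total (24630) were scaled by TMM and tested with the two-sided quasi-likelihood test of edgeR 4.0.16 (R 4.3.3) on condition alone, with Benjamini-Hochberg adjustment over all genes tested and a threshold of 0.05. The standard error is the log2 fold change divided by the root of the test statistic. Alternatives were DESeq2 1.42.0, its size factors, library size alone, filterByExpr, a minimum of 1 count, a prior count of 2, a replicate block and each library left out. On simulated counts with 200 genes changed by 2 on the log2 scale, the edgeR test recovered 196 of them among 24633 genes, with 8 false calls. DESeq2 recovered 174, with 3 false calls. The changed genes were drawn from those with more reads than the minimum for testing, and all genes had the same dispersion. The rate need not hold for genes with few reads or with replicates that differ widely.

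Members, lists and their keywords were chosen with earlier results of these data known. Named were all members, *MtWOX9-1*, neighbours with an adjusted p under 0.05, and per list the 3 higher and 3 lower genes with the largest log2 fold change among those called with a mean of at least 100 normalized counts. *MtSMB*, *AtFEZ-like*, the other root apex genes, *THE1-like*, *MtSHR* and 3 of the *MtLAT52/POE* genes fall outside this rule and were named after their values were seen.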

Additional observations from a re-analysis of the deposited data

How the results depend on the processing

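For every Root Cap gene each overexpressing library lay above both wildtype libraries, so no direction could turn in the 11 alternatives run. Since the family was chosen on this contrast, nothing further is read from them. All 8 Root Cap genes stayed higher in each, 88 values in all from the same 4 libraries. In each setting that kept all 4 libraries they were also past the threshold. Leaving 1 library out puts a single library in 1 group, so calls of the members are not given for those settings. The median log2 fold change of the members lay between 6.27 and 9.66 with 1 library left out, the latter without wildtype replicate 2. It was 6.48 with a prior count of 2. The number of neighbours called was 3 without overexpressing replicate 1 and between 3 and 5 with any library left out. Over all genes, 9645 were called, 6432 with DESeq2, 6668 with the replicate block, and between 5631 and 8323 with 1 library left out (5631 without overexpressing replicate 1, 6298 without wildtype replicate 1). *MtWOX5* reversed to -0.27 without wildtype replicate 1. The median log2 fold change of the root apex regulators was 7.42 without wildtype replicate 2. The cause of these changes was not tested. Deviations of libraries with the same replicate number correlated at -0.026 across genes. With 1 difference between replicates per group this cannot decide whether the numbers pair the libraries, and pairing is not given in the sources used here. With the replicate block the median of the Root Cap genes was 7.31, 8 were called higher, and 9 root apex regulators were called higher. Matching by protein sequence, planned to find related genes without the description, was not run, since no sequences were used here. The wildtype counts of most members, at most 15 except for *MtRC5* and *MtRC7*, limit the precision of every fold.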

Other observations

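The beta-galactosidases were looked at as a family because *MtBGAL15* lies beside *MtRC8*, a choice made after its value was seen. Of 25 genes so described, 8 had no reads and 17 were tested, of which 4 were higher, 7 were lower and 6 did not pass in edgeR's quasi-likelihood test, beside 20.2% and 18.9% of all genes called higher and lower. The median log2 fold change was -0.22, so *MtBGAL15* at 6.15 stood apart from most of its own family. *MtBGAL13*, also named after its values were seen, went from 3 and 0 counts to 127 and 99 (log2 fold change 5.79, adjusted p = 0.00398 from edgeR with Benjamini-Hochberg adjustment). *MtBGAL18* had 258 and 303 against 896 and 627 counts (log2 fold change 1.08, adjusted p = 0.020 from edgeR, between 0.0010 and 0.060 over the alternatives). Lower were *MtBGAL8*, with 441 and 425 against 123 and 107 counts (log2 fold change -2.26, adjusted p = 0.0026), *MtBGAL23*, with 1328 and 1238 against 435 and 375 (-2.01, adjusted p = 0.0026), and *MtBGAL3*, with 1449 and 1022 against 411 and 569 (-1.67, adjusted p = 0.0069), all from edgeR. In wildtype calli the beta-galactosidases showed no common order of the replicates, with 9 of the 17 tested higher in replicate 2 and 8 in replicate 1.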
